A study of Mus musculus with 2 samples.

Results

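The genes of fast transmitters, 8 in all, which set which fast transmitter a neuron releases, were followed across both arrays of this series. A probe set (a group of probes for 1 stretch of transcript, read as 1 value) was taken where the platform annotation gave it a single gene symbol and that symbol was Slc17a6, Slc17a7, Slc17a8, Slc32a1, Slc18a3, Gad1, Gad2 or Chat. The rule kept dim probe sets. It gave 145 probe sets for 8 genes, of 22296 genes named in this way. The gene set was drawn up with earlier results of these arrays known, Slc17a6 among them, so its members were in part chosen by their KO and HET values, and all differences below are descriptions with no test.

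The arrays measured RNA of mouse hypothalamic neurons that express agouti-related peptide (AgRP), collected by fluorescence-activated cell sorting from animals of mixed genetic background. One array was made from FoxO1 KO cells (KO below) and 1 from FoxO1 heterozygous KO cells (HET below), so the comparison cells also carried a FoxO1 mutation. FoxO1, a transcription factor, leaves the nucleus when insulin signals, and the series asks which transcripts depend on it in AgRP neurons. How FoxO1 was deleted, how the cells were tagged, the age of the animals and how many were used per array are not stated in the labels. With 1 array per genotype there is no replicate and no p-value. Beside a difference stands the SD across the probe sets of that gene, which says nothing about the spread between mice.

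A neuron releases a fast transmitter only if it makes or imports the molecule and loads it into synaptic vesicles. The vesicular glutamate transporters (VGLUT2, VGLUT1 and VGLUT3, encoded by Slc17a6, Slc17a7 and Slc17a8) define glutamate neurons, and Slc17a6 is the usual form in the hypothalamus. GABA neurons make GABA from glutamate with the decarboxylases GAD67 (Gad1) and GAD65 (Gad2) and load it with the vesicular transporter VGAT (Slc32a1). AgRP neurons are known as inhibitory cells that release GABA beside their peptides. Cholinergic neurons use choline acetyltransferase (Chat) and the vesicular acetylcholine transporter VAChT (Slc18a3), and Slc18a3 lies inside the span of Chat in the RefSeq annotation.

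The start regions of the vesicular glutamate transporter genes are shown because these genes encode proteins of the same function and 1 of the 3 differed strongly between the arrays. Each sequence is the 250 bases before the first annotated start in RefSeq (GRCm38.p6), 5′ to 3′ on the strand of the gene. The arrays' own annotation was matched by symbol only.
Slc17a6 (chr7:51621580-51621829, plus strand): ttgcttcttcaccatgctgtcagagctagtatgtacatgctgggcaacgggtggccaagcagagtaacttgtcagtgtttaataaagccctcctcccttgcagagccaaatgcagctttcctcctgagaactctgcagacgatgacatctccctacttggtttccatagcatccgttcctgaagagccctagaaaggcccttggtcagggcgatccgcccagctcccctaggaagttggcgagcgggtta
Slc17a7 (chr7:45163671-45163920, plus strand): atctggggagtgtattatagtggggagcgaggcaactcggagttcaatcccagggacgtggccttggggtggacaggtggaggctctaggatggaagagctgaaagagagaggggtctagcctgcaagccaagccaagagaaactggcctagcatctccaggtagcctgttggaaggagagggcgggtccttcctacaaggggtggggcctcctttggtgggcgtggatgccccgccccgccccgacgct
Slc17a8 (chr10:89621250-89621499, minus strand): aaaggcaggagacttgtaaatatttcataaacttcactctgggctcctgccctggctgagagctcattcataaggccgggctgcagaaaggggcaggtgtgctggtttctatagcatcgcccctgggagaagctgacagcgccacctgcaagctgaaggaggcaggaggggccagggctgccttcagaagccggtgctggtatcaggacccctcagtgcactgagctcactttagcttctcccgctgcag

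The FoxO recognition motif was searched in the form GTAAACA on both strands, its reverse complement being TGTTTAC. It was in none of these 3 sequences. All 8 members matched the RefSeq table, with 10 annotated starts, and 1 of those 10 windows of 250 bases held the motif. Of 32851 such windows over all genes, 1040 or 3.17% held it. The match lay 151 bases before a second start inside Slc17a8, shown with 10 bases on either side and the motif in capitals.
Slc17a8, second start (chr10:89599950-89599976, minus strand): aagtggtgttGTAAACAgagtaattat
A match of letters is not a binding site, and an absence concerns only this form of the motif and these windows. The GC content of the first windows was 53.2% for Slc17a6, 61.2% for Slc17a7 and 57.2% for Slc17a8, with 7, 9 and 5 CpG dinucleotides, against medians of 52.4% and 6 over all windows.

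All levels below are log2 values of probe sets on 1 array, and all differences are KO minus HET on that log2 scale. Brightness depends on the probes as well as on the RNA, so a level is compared between arrays for the same probe sets; a level of 1 gene cannot be set against that of another as an amount of RNA. A floor of 5.86, the median over all 1235936 probe sets of the mean of both arrays, separates bright from dim. A gene was summarised as the median over its probe sets at or above the floor. It was evaluated where at least 3 passed, and called at least 2-fold lower or higher where that median was 1 or more in size and 75% or more of its probe sets shared that direction. The members had 106 probe sets at or above the floor and 39 under it, and 7 of the 8 genes were evaluated; Slc18a3 had 1 bright probe set and was not.

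Values of both arrays ran from about 2.5 to 14.1, with a correlation of 0.920 between the arrays across probe sets, which are not independent replicates. Agrp, which defines the sorted cells, was bright on both arrays, at 12.4 on KO and 12.0 on HET, and did not pass the 2-fold rule. Foxo1, the targeted gene, was lower on KO by a small amount, at -0.48 (SD 0.53, 8 of 8 probe sets lower), which did not pass the rule either. The position of its probe sets relative to the deletion is unknown, so Foxo1 checks the labels only loosely. Over 16639 evaluated genes the median difference was -0.11 (quartiles -0.29 and 0.09).

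One of the 7 evaluated members was at least 2-fold lower on KO, and none was at least 2-fold higher. Over all evaluated genes the shares were 1.12% and 1.13%. The median over the 7 genes was -0.23 against -0.11 over all genes, and 6 of the 7 lay below 0, as did 65.2% of all genes. The gene that stood apart was Slc17a6, at -4.29. The other 6 ran from -0.40 for Slc32a1 to 0.14 for Gad2. Since the choice of members used this contrast, these counts are given as they are.

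**Figure D1:**
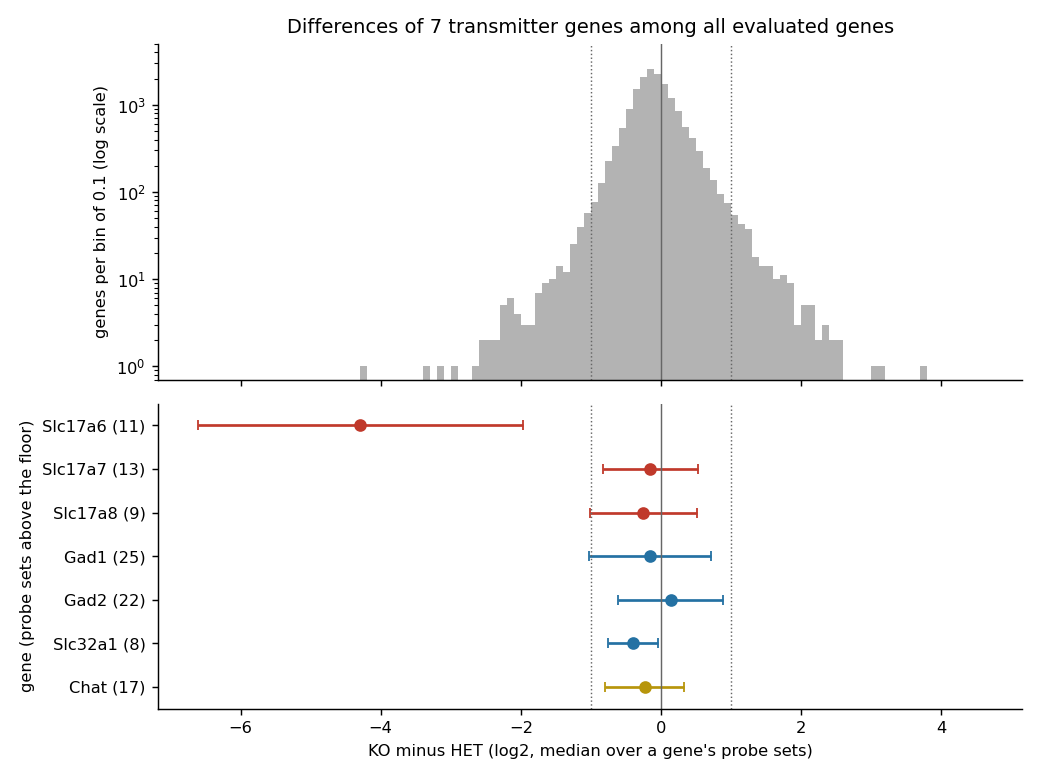
Upper panel, number of evaluated genes (log axis) by KO minus HET difference in bins of 0.1 on the log2 scale; lower panel, the difference of each of 7 members (points) with the SD over its probe sets (bars) and the number of those probe sets in brackets. Dotted lines mark 2-fold; Slc17a6 lies at -4.29, at the lower end of all genes, and the other 6 members between -0.40 and 0.14.

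With the floor applied, Slc17a6, which encodes VGLUT2, had the lowest difference of all 16639 genes. Its level was 5.40 on KO and 9.11 on HET, and its difference was -4.29, a 19.6-fold lower value (SD 2.32 over 11 probe sets, 9 of 11 lower). The KO level lay under the floor value of 5.86, where values may carry mostly background, so the fold is uncertain. Of these 11 probe sets, 7 read under the floor value on KO and passed the floor only through their HET values. That filter thus in part sets the difference and the rank of Slc17a6. The SD is large because its probe sets formed distinct sets.

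Of its 20 probe sets, 8 were bright on HET, at 8 or above. Probe set 5334526 read 4.50 on KO and 9.86 on HET, a difference of -5.36. Probe set 4344586 read 5.58 and 10.6, a difference of -5.07. Probe set 5260743 read 4.82 and 9.86, a difference of -5.05. These 3 were each at least 32-fold lower on KO, and they were the only 3 member probe sets of that size. Of all 215976 probe sets at or above the floor, 62 or 0.0287% were. Probe set 5473236 read 5.40 on KO and 10.1 on HET, 4775609 read 3.83 and 8.37, and 4320226 read 4.82 and 9.11. Probe set 5351278 read 4.86 and 8.75, and 5286819, the brightest, read 7.73 and 11.1. The brightest was thus also the one with the smallest difference of the 8, at -3.33, and the only one still above the floor on KO.

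The 8 bright probe sets had a median of 4.84 on KO (range 3.83 to 7.73) and of 9.86 on HET (range 8.37 to 11.1), and they were picked for their HET values, so a lower KO range is in part set by that choice. Over all 11 probe sets at or above the floor the arrays overlapped, from 3.83 to 8.21 on KO and from 6.80 to 11.1 on HET. The 8 bright ones had differences with a median of -4.61 (SD 0.67) that ran from -5.36 to -3.33, or 41.0-fold to 10.1-fold lower. On HET they stood between percentile 86.2 and percentile 98.7 of all probe sets of that array. On KO 7 of the 8 were under the floor value of 5.86, between percentiles 14.8 and 45.2, which is the range of dim probe sets. The sizes of these differences are therefore uncertain too.

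A further 3 Slc17a6 probe sets passed the floor and differed by less than 2-fold. Probe set 5463032 read 8.21 on KO and 7.88 on HET, 5437549 read 7.76 and 6.80, and 4987298 read 6.31 and 6.86. Their differences were 0.33, 0.96 and -0.55, so 2 of these 3 stretches were brighter on KO, against the direction of the gene, and 1 was dimmer. Which part of the transcript or gene each probe set reads is not given in the table. The remaining 9 probe sets were dim, with means under the floor. They ran from 3.78 to 6.02 on KO and from 4.59 to 6.18 on HET, with a median difference of -0.70, and 8 of the 9 were lower.

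With dim probe sets included, Slc17a6 stood at -1.15 over 20 probe sets (SD 2.15, 17 of 20 lower), a 2.21-fold lower value that still passed the 2-fold rule. Of 20188 genes evaluated without the floor, 0.624% were called lower, and Slc17a6 ranked 76th from the lowest. Of the 20 probe sets, 10 were at least 2-fold lower on KO. The gene was thus called with and without dim probe sets, but only narrowly when they were included. Its size and rank depended on them.

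**Figure D2:**
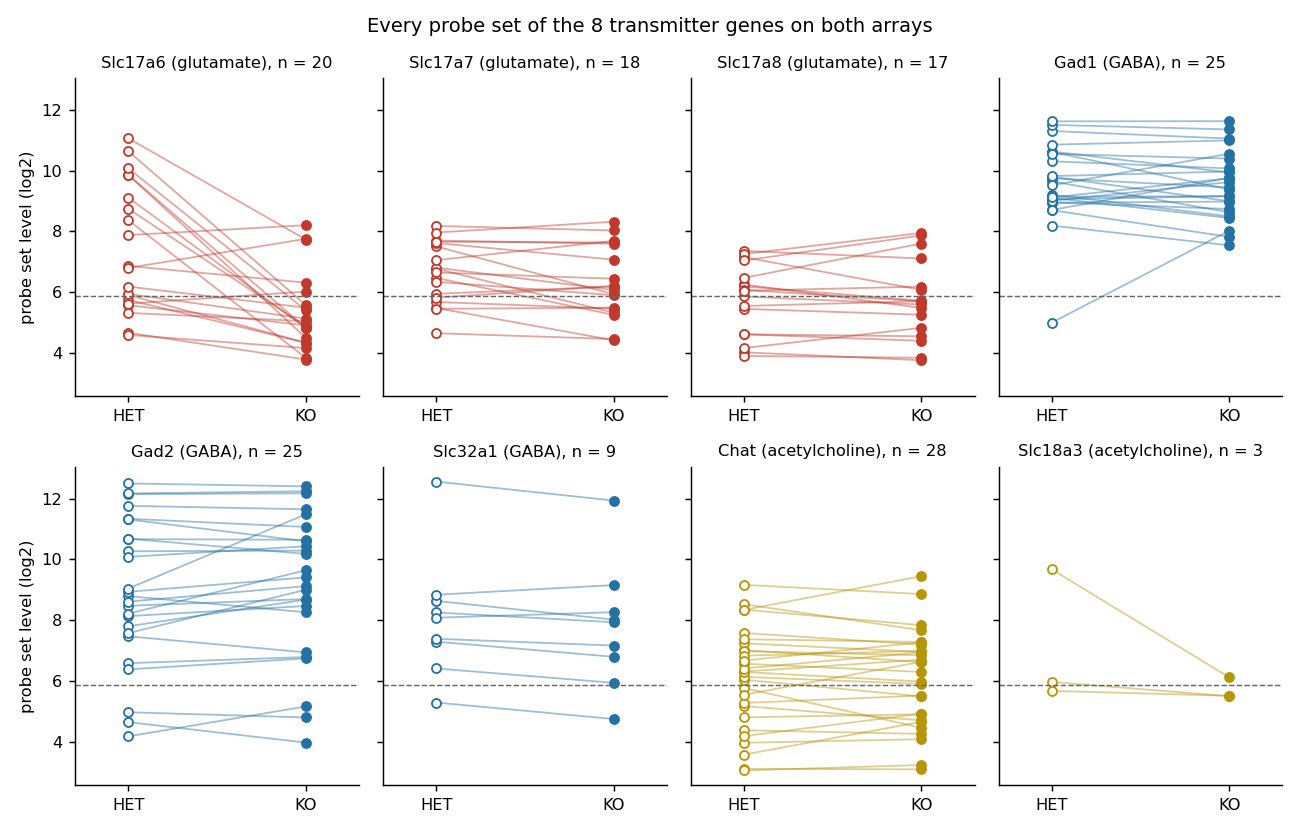
Level of every probe set (log2) of the 8 genes on the HET array (open circles) and the KO array (filled circles), with a line joining the same probe set, n the number of probe sets, and a dashed line at the floor of 5.86; glutamate genes are red, GABA genes blue and acetylcholine genes yellow. The 8 steep Slc17a6 lines and 1 Slc18a3 line drop from HET to KO, and 1 Gad1 line climbs from 4.99 to 8.02.

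The steep set was compared with all probe sets that name 1 gene. Of 99454 such probe sets at 8 or above on HET, 1260 or 1.27% were under the floor value on KO. Among the members, 60 probe sets were that bright on HET and 7 were under the floor value on KO, all of them from Slc17a6. One other gene had as many as 7 such probe sets, and no gene had more. At least 16-fold lower on KO were 334 of 215976 probe sets at or above the floor, or 0.155%. Slc17a6 held 6 of these 334, more than any other gene. At the milder size of 4-fold, where 2.6% of probe sets were lower, it held 8, and 11 genes held more. These counts use the KO and HET values through which Slc17a6 was in part chosen, so they describe it and test nothing.

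**Figure D3:**
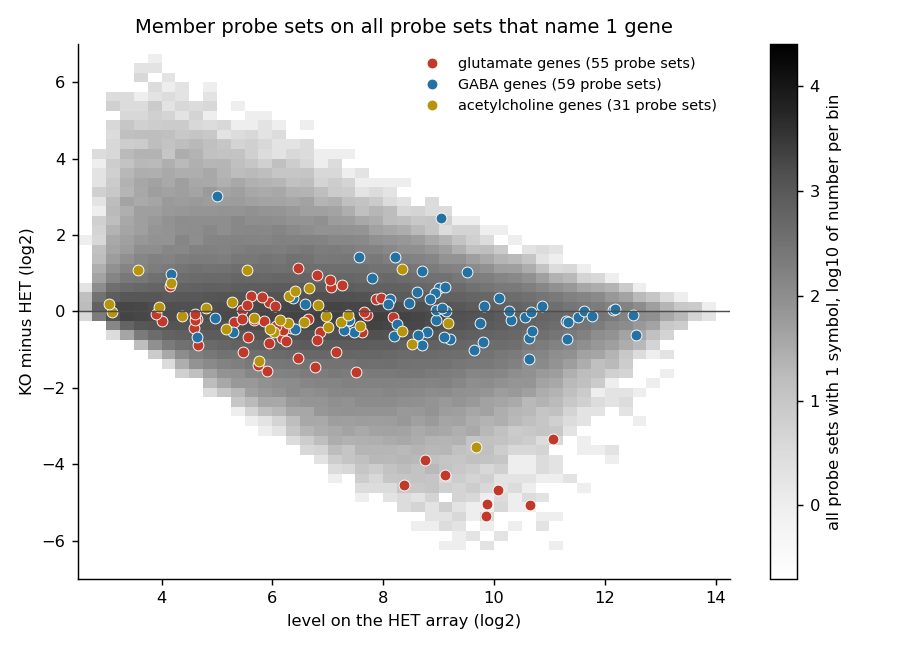
KO minus HET difference (log2) against the level on the HET array (log2) for the 145 member probe sets (coloured by transmitter) over all 318760 probe sets with 1 symbol (grey, log10 of the number per bin). Most GABA points follow the dark centre, with 1 Gad1 point at 3.03 and 1 Gad2 point at 2.45 far above it, while 8 glutamate points, all Slc17a6, and 1 acetylcholine point lie between -3.33 and -5.36 or at -3.56.

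Slc17a7, which encodes VGLUT1, the main vesicular glutamate transporter of the cerebral cortex, differed little. Its level was 6.44 on KO and 7.05 on HET, differing by -0.15 (SD 0.67, 13 probe sets, 9 of 13 lower). Its 18 probe sets ran from 4.41 to 8.32 on KO and from 4.65 to 8.18 on HET, so the ranges nearly coincided. The lowest differences were -1.58 at probe set 4971765 (5.93 on KO, 7.51 on HET) and -1.45 at 5082095 (5.32 and 6.77), and the highest was 0.64. No probe set was 4-fold lower, and over all 18 the median was -0.20.

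Slc17a8 encodes VGLUT3, which is found in neurons that mainly use other transmitters. Its level was 6.18 on KO and 6.47 on HET, differing by -0.25 (SD 0.76, 9 probe sets). The probe sets split evenly, 5 lower and 4 higher, between -1.08 (probe set 4673354, 6.07 on KO and 7.15 on HET) and 1.13 (4503592, 7.60 and 6.47). None of its 17 probe sets reached 8 on either array. The median over all 17 was -0.19, so adding the dim probe sets changed little. The glutamate genes together thus had 9 probe sets at 8 or above on HET, 8 of Slc17a6 and 1 of Slc17a7, and 3 on KO.

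Gad1 and Gad2, whose enzymes make GABA, were bright on both arrays. Gad1 had a level of 9.45 on KO and 9.52 on HET and differed by -0.15 (SD 0.87, 25 probe sets, 14 lower and 11 higher). All 25 of its probe sets were above the floor, 24 of them at 8 or above on HET and 23 on KO. Of the 25, 12 lay within 0.5 of no difference. The lowest difference was -1.24 at probe set 4629157 (9.38 on KO, 10.6 on HET).

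A single Gad1 probe set ran far the other way. Probe set 5258400 read 8.02 on KO and 4.99 on HET, a difference of 3.03, or 8.17-fold higher on KO. The fold is uncertain, since this probe set read under the floor value on HET and passed the floor through KO. It was the only member probe set at 8 or above on KO and under the floor value on HET. Among the GABA genes that was 1 of 46 probe sets at 8 or above on KO. Over all genes the share was 1.54%, so this count is near it. The next highest Gad1 differences were 1.06 (5167921, 9.76 on KO and 8.70 on HET) and 1.04 (4743433, 10.6 and 9.52), so this stretch differed far more than any other of Gad1, while the median of the gene was near 0.

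Gad2 had a level of 9.91 on KO and 8.99 on HET. The median of its probe sets' own differences was only 0.14 (SD 0.74 over 22 probe sets, 14 of 22 higher), less than the gap between those levels because each median is taken separately. Its 3 brightest probe sets were almost the same on both arrays: 4664559 read 12.4 on KO and 12.5 on HET, 4966435 read 12.2 and 12.2, and 4374328 read 12.2 and 12.2. Probe set 4780568 had the highest difference of Gad2, 2.45, at 11.5 on KO and 9.04 on HET. It and the Gad1 probe set were the only 2 of 106 member probe sets at or above the floor that were at least 4-fold higher. Of all 215976 probe sets at or above the floor 2.56% reached that size, so the members held no more of them than that share. A further 2 Gad2 probe sets were over 2-fold higher, 5292148 (9.64 on KO, 8.21 on HET) and 4867189, at 1.43 each. No Gad2 probe set was as much as 2-fold lower, the lowest being -0.72, and the median over all 25 was 0.07.

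Slc32a1 encodes VGAT, which loads GABA and glycine into vesicles. Its level was 7.97 on KO and 8.17 on HET, a value of -0.40, or 1.32-fold lower (SD 0.36, 8 probe sets, 6 of 8 lower). The brightest, 5309580, read 11.9 on KO and 12.6 on HET, a difference of -0.63 and the lowest of the gene. The highest was 0.32 at 4790418 (9.15 on KO, 8.84 on HET), so all of its probe sets were within 2-fold. Its dim probe set read 4.74 and 5.28. Among the 7 evaluated members Slc32a1 came next after Slc17a6 in the order of differences, and with dim probe sets its median was -0.47.

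The 3 GABA genes together had 46 probe sets at 8 or above on each array, of 59, and 31 were lower and 28 higher on KO. The arrays thus held the same number of bright probe sets for the genes that define a GABA neuron. In the order of differences from Slc32a1 at -0.40 through Slc17a8 (-0.25), Chat (-0.23), Gad1 (-0.15), Slc17a7 (-0.15) and Gad2 (0.14), each gap between neighbours was smaller than the SD over probe sets of either gene. The gap from Slc17a6 to Slc32a1 was larger than the SD of 2.32 of Slc17a6, but with dim probe sets included, where they stood at -1.15 and -0.47, it was smaller than the SD of 2.15.

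Chat, the enzyme that makes acetylcholine, had a level of 6.95 on KO and 6.98 on HET and differed by -0.23 (SD 0.56, 17 probe sets, 11 lower and 6 higher). Its 28 probe sets ran from 3.08 to 9.45 on KO and from 3.05 to 9.16 on HET, and 18 of them lay within 0.5 of no difference. Among those above the floor, the highest was 1.11 at probe set 4781794 (9.45 on KO, 8.34 on HET) and the lowest -0.85. The sign of so small a value depended on the summary, since the mean over the same probe sets was 0.0055.

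Slc18a3, whose transporter loads acetylcholine, rested on 3 probe sets that disagreed in size. Probe set 5561838 read 6.11 on KO and 9.67 on HET, a difference of -3.56. Probe set 5465985 read 5.49 and 5.96, and 4401248 read 5.51 and 5.67, differences of -0.47 and -0.16. The bright probe set was therefore 11.8-fold lower on KO, within the range of the bright ones of Slc17a6, while the other 2 had means under the floor and can show little. With all 3 the median was -0.47 and did not pass the rule. Of all 215976 probe sets at or above the floor, 0.639% were at least 8-fold lower and 2.6% at least 4-fold lower. Of 106 member probe sets at or above the floor, 9 were at least 4-fold lower, all of Slc17a6 and Slc18a3. No Chat probe set was among them.

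Genes that act on the same transmitters were read from lists that held no member. Of 13 genes of glutamate supply and uptake, 11 were evaluated and none was called in either direction. Of these 11, 9 were below 0, as were 65.2% of all genes. Their median was -0.31 against -0.11 over all genes, from Slc1a6, a neuronal glutamate transporter, at -0.80 (SD 0.72) to Glul, the glutamine synthetase of glia, at 0.18 (SD 1.22). Of 8 genes of GABA and glycine uptake and breakdown, 7 were evaluated with a median of -0.17 and no call, from the glycine transporter Slc6a9 at -0.34 to the GABA transporter Slc6a13 at 0.17. All 7 genes of acetylcholine handling were evaluated, with a median of -0.52 and no call. They ran from the choline transporter-like gene Slc44a1 at -0.57 (SD 1.35) to Prima1, which anchors acetylcholinesterase, at 0.15, and the median was -0.14 with dim probe sets included.

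The relatives of the vesicular transporters lay close to 0. All 10 were evaluated with a median of -0.10 and none was called. The lowest was Slc30a3, which loads zinc into vesicles of glutamate neurons, at -0.26 (SD 0.46), and the highest was Slc18a2, which loads monoamines, at 0.11 (SD 0.90). Slc17a6 was thus the 1 vesicular transporter gene of those evaluated, members and relatives, that passed the rule.

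Transcription factors of GABA neurons had a median of -0.32 over 9 of 11 genes evaluated. Of these 9, 7 were below 0, as were 65.2% of all genes, and none was called. Dlx6, a homeobox factor of forebrain GABA neurons, was lowest at -1.78 (SD 1.67, 2 of 3 probe sets lower), and stood at -0.02 with dim probe sets included. Sp8 was highest at 0.20.

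Markers of other hypothalamic glutamate neurons were examined beside Slc17a6, because a sort can carry RNA of neighbouring cells; in bulk RNA, fewer cells of a type and less RNA per cell cannot be told apart. Of 14 such genes, 12 were evaluated and 11 of these were below 0, as were 65.2% of all genes. The median of the 12 was -0.27, against -0.11 over all genes. The levels of these 12 had a median of 7.25 on KO (range 6.50 to 8.34) and 7.50 on HET (range 6.52 to 9.84). None was under the floor on either array, but only probe sets at or above the floor enter a level. That outcome was thus largely fixed in advance and does not show that the RNA was present. The 1 gene of the 12 called lower, a call made for 1.12% of all evaluated genes, was Oxt, the oxytocin precursor. Oxt stood at -1.01 (SD 2.57 over 5 probe sets, 5 of 5 lower). It lost the call at -0.90 with differences centred on the median of all genes. A 75th-percentile floor also removed the call, at -0.74, while the mean of Oxt was -2.26. The part of these cells in the Slc17a6 result was not tested. Markers of cholinergic neurons, of which 3 of 5 were evaluated, ran from Lhx8 at -0.32 to Ngfr at -0.04, with a median of -0.23.

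Markers of further cell types were read the same way. Like the members, these lists were chosen with earlier results of these data known, so their counts describe them and test nothing. The 8 identity genes of AgRP neurons lay at a median of 0.20 with none called, from the ghrelin receptor gene Ghsr at -0.60 to the melanocortin receptor gene Mc3r at 0.52. Pan-neuronal genes (9 of 10 evaluated) had a median of -0.16 with none called, from Syt1, the vesicle calcium sensor, at -0.97 to Elavl4 at 0.13. Of 11 oligodendrocyte lineage genes, 10 were evaluated and all 10 were below 0, as were 65.2% of all genes. Of these 10, 6 were called lower, a call made for 1.12% of all evaluated genes. Their median was -1.29, and their levels had a median of 7.22 on KO (range 6.27 to 8.68) and 8.97 on HET (range 7.66 to 9.52). None was under the floor, which the choice of probe sets largely fixed here too. The 6 were the myelin genes Mag (-2.12), Cnp (-2.10), Mobp (-1.46) and Mbp (-1.11), the myelin lipid enzyme gene Ugt8a (-2.98) and the precursor receptor gene Pdgfra (-2.41), and Mbp lost its call with no floor, where under 75% of its probe sets were lower. Mog (-0.75), Olig1 (-0.51), Olig2 (-0.425) and Sox10 (-0.09) were not called. Sox10, with 5 probe sets lower and 4 higher, lay near the median of -0.11 over all genes. The part of oligodendrocyte lineage cells in the Slc17a6 result was not tested.

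Astrocyte genes, 6 of 6 evaluated, had a median of 0.01 with none called, between S100b at -0.35 and Gfap at 0.66. Microglia and endothelium genes, 5 of 6 evaluated, had a median of -0.12 with none called, between the endothelial cadherin gene Cdh5 at -0.77 and the microglial gene Aif1 at 0.50. The lists thus held 7 genes called lower and none called higher, 6 of the 7 in the oligodendrocyte lineage, among 97 list genes evaluated. Over all evaluated genes 1.12% were called lower and 1.13% higher. Since the choice of lists used earlier results of these data, the counts are given as they are.

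**Figure D4:**
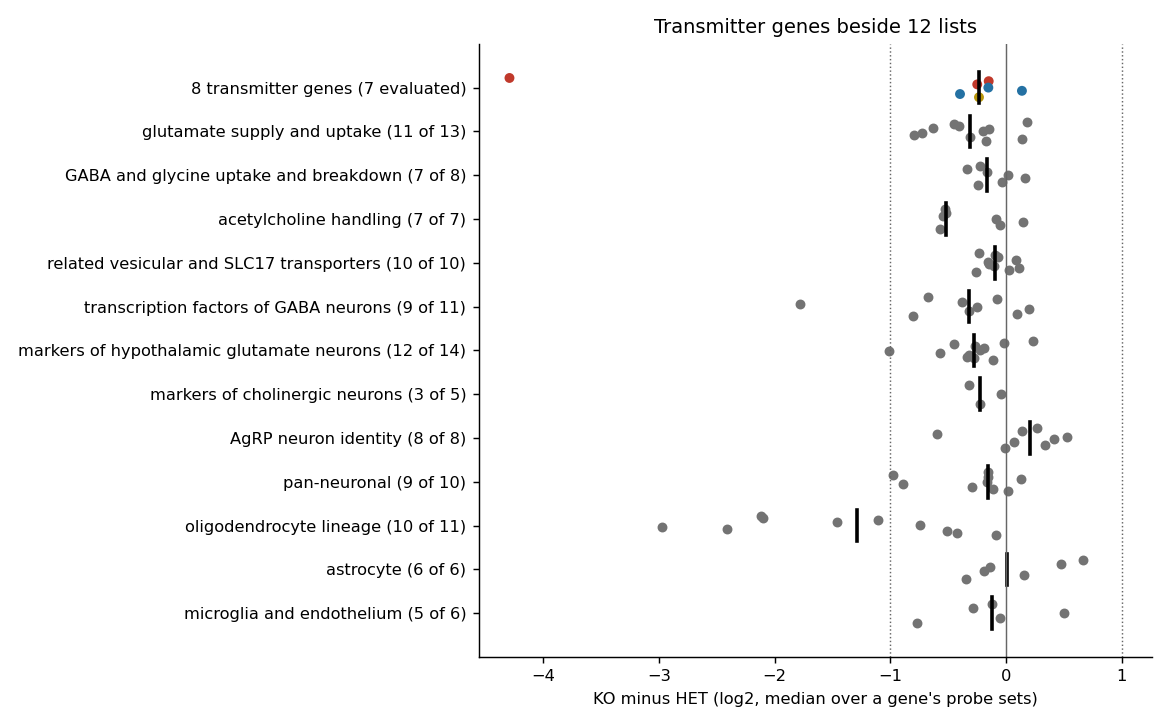
KO minus HET difference (log2, median over a gene's probe sets) of the 7 evaluated members (coloured) and of the genes of 12 lists (grey, with the number evaluated of all in brackets); black bars are medians and dotted lines mark 2-fold. Slc17a6 lies at -4.29 to the left of every list gene, and the oligodendrocyte lineage has the lowest list median, -1.29.

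The genes whose pair of levels was nearest to that of Slc17a6 (5.40 on KO, 9.11 on HET) were found by the Euclidean distance over these 2 values, which also reflects how bright each gene's probes are. The nearest was Zfp58, a zinc finger gene, at a distance of 0.28, with levels of 5.19 and 9.29 at -2.56 (SD 1.52, 5 of 5 probe sets lower). Then came BC030500 at 0.43, Npvf, a hypothalamic RFamide peptide precursor, at 0.47, Dlx6 at 0.68 and the cation channel gene Trpc5 at 0.86. Their differences were -3.18, -2.36, -1.78 and -2.25. Slc17a6 had the lowest difference of all evaluated genes, so smaller sizes in these lower genes were fixed in advance. The KO levels of Zfp58 (5.19), BC030500 (5.68), Npvf (5.81) and Dlx6 (5.61) lay under the floor value, and that of Trpc5 (6.14) above it. The differences of the genes under it are therefore uncertain too. BC030500 and Dlx6 rested on 3 probe sets each. With dim probe sets included, Zfp58 (-1.29) and Npvf (-2.24) passed the 2-fold rule, and BC030500 (-1.40), Dlx6 (-0.02) and Trpc5 (-0.34) did not. A likeness over 2 arrays is a weak description, and nothing is drawn from it.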

How the data were processed

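Gene expression was measured on 2 exon-level arrays, 1 per genotype, with genotypes as labelled. Trizol extraction and Nugen labelling of cRNA are named in the labels' protocols. The authors deposited 1 log2 value per probe set and array, made with RMA and Partek per the submitters' processing notes; the log2 scale was taken from the values. Quantile normalisation, usual in RMA, would hide a change in total RNA. No signal over background is given, and precision is limited by the number of arrays.

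From these values, gene differences were computed with Python 3.11.15, numpy 2.4.6, pandas 2.3.3 and statsmodels 0.14.6, and plots with matplotlib 3.10.9. The summary per gene was first tested on simulated data. Of 1235936 probe sets, 318760 had 1 symbol, and the 6684 with several named no gene in the main values. The members and lists were chosen with earlier results of these data known. The 12 lists held 109 genes, of which 97 were evaluated and 9 matched no symbol of the annotation. Named are the members, from each list the genes called or else the highest and lowest, the 5 genes nearest to Slc17a6, and Foxo1 and Agrp. Alternatives removed the floor, set it at the 75th percentile or on the brighter array, took the mean, asked for at least 1 or 5 probe sets, repeated the quantile normalisation, centred the differences, removed their trend on level, added probe sets of several symbols, called at 1.5-fold, or dropped the rule on agreement.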

Additional observations from a re-analysis of the deposited data

How the results depend on the processing

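With 1 array per genotype, no array could be left out. No paired analysis was possible because the groups hold 1 sample each and share no second replicate number. Slc17a6 was called lower under each of 11 alternatives, from -4.30 with the trend on level removed to -1.15 with no floor, and stood at -3.22 by the mean over probe sets. Asking for at least 1 or 5 probe sets, adding several symbols or dropping the agreement rule gave the same -4.29 over 11 probe sets. Those settings therefore added no separate check of Slc17a6. The other 6 evaluated members were called under none of their alternatives, and their ranges were -0.28 to -0.04 for Slc17a7, -0.25 to -0.02 for Slc17a8, -0.19 to -0.04 for Gad1, 0.07 to 0.27 for Gad2, -0.47 to -0.28 for Slc32a1 and -0.38 to 0.0055 for Chat. Of these, Chat changed sign, under the mean over probe sets.

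Slc18a3 stood at -0.47 with no floor, where 2 dim probe sets enter, and at -3.56 with at least 1 probe set, where its single bright one is enough for a call. Over all genes, 186 were at least 2-fold lower and 188 higher. With at least 1 probe set, which evaluates more genes, these were 329 and 338, and with the 1.5-fold rule 815 and 545. Centring adds 0.11 to every difference, which gave 127 lower and 270 higher and put Slc17a6 at -4.18. Of 1111 values of list genes, list medians and genes near Slc17a6, 1095 kept their call or, where not called, moved by less than the SD over probe sets or list members, while 6 lost a call, 5 gained one and 5 moved further without one. Mbp stood at -1.05 with no floor and, by a small margin, lost its call with centring too.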
